A study of Mus musculus with 28 samples.

Results

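The galectin genes described here are Lgals1, Lgals3, Lgals8 and Lgals9, which encode galectins, and Lgals3bp, which encodes a secreted glycoprotein that binds galectin-3. These 5 genes, of the 53342 gene identifiers in each deposited table, were taken by name from the GRCm38 annotation and followed through all 8 groups of the study. They were selected on values of these data, namely the levels in P24 bulk cortex and in RNA on purified ribosomes (IP) of cKO and Ctrl mice and the spread among cKO mice. Those values, and IP against Input in either genotype, are therefore given as a description without a test. Tests are given for P17 cortex and for TRAP Input, whose mice are those of the IP libraries.

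Cortical RNA was sequenced from mice with loxP-flanked alleles, kept on C57BL/6J. The cKO mice carried 2 loxP alleles and the mGFAP-Cre driver, whose Cre is made from a mouse Gfap promoter and acts in astrocytes. The Ctrl mice were sex-matched littermates with loxP/loxP or loxP/+ alleles and no driver named, so they differ from the cKO mice in the driver as well as in recombination. Bulk RNA-Seq covered 4 cKO and 4 Ctrl mice at P17 and 4 of each at P24. Translating ribosome affinity purification (TRAP-Seq) covered 3 cKO and 3 Ctrl mice at P24 with a Cre-dependent EGFP/Rpl10a ribosomal protein. From each mouse the anti-GFP precipitate (IP) and the extract before precipitation (Input) were sequenced. The tag needs Cre, but the sources used here do not spell out the driver genotype of the Ctrl mice in TRAP-Seq. Each library came from the cortex of 1 mouse, and the bulk and TRAP-Seq libraries came from different mice.

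Galectins are small proteins that bind beta-galactoside sugars on glycoproteins and glycolipids. They are made in the cytosol, leave the cell by a route without a signal peptide, and crosslink glycosylated receptors at the cell surface. Inside the cell several of them bind sugars exposed when a lysosome or endosome breaks. In the brain, galectin-1 is known from astrocytes and some neurons, galectin-3 from activated microglia and from reactive glia, and galectin-9 from several glial and vascular cells.

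Between 8855488 and 14575306 reads were counted on genes in the 16 bulk libraries and between 18433087 and 27242445 in the 12 TRAP-Seq libraries. Levels are CPM, the count of a gene relative to its library's scaled total, after TMM scaling, which corrects for differences in library composition. A floor of 3 counts was equal to 0.202 to 0.341 CPM in bulk and 0.106 to 0.167 CPM in TRAP-Seq libraries, and covers counting error only. Markers of astrocytes, neurons, oligodendrocytes, microglia and vessels were present in every group, and no marker on the 10 lists had 0 counts in any group. In Ctrl mice all 10 astrocyte markers were higher in IP than in Input, with log2 fold changes between 2.40 and 4.62. A gene was called where its p from edgeR's quasi-likelihood test, adjusted by Benjamini-Hochberg across the genes of the fit, was under 0.05. The standard error (SE) follows each log2 fold change.

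Lgals1 (ENSMUSG00000068220) lies on the plus strand of chr15:78926725-78930465 in GRCm38 and has 903 exonic bases. Lgals3 (ENSMUSG00000050335) lies on the plus strand of chr14:47367751-47386160, with 1858 exonic bases. Lgals3bp (ENSMUSG00000033880) and Lgals9 (ENSMUSG00000001123) are on the minus strand of chromosome 11, at chr11:118392751-118402092 and chr11:78962974-78984946. Lgals8 (ENSMUSG00000057554) lies on the minus strand of chr13:12439415-12464944 and shares 155 exonic bases with Heatr1 on the opposite strand. The strand setting of the counting is not given in the sources used here, so reads on those shared bases cannot be assigned to either gene.

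Of the 5 genes, 4 matched the RefSeq promoter windows of GRCm38.p6, which run from 250 bases before to 50 after the start site. The windows of Lgals3, Lgals8 and Lgals9 are shown because these genes had the largest difference between genotypes, the smallest spread among P24 cKO mice in bulk, and a lower level in IP than in Input. Capitals mark matches to the GC box, the letters GGGCGG on either strand.
Lgals3, chr14:47373610-47373909, plus strand: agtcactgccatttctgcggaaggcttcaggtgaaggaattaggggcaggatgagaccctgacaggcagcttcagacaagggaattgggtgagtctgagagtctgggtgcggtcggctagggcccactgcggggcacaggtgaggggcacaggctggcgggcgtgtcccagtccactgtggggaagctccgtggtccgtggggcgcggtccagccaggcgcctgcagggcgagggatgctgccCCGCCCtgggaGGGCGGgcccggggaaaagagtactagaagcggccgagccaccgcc
Lgals8, chr13:12461689-12461988, minus strand: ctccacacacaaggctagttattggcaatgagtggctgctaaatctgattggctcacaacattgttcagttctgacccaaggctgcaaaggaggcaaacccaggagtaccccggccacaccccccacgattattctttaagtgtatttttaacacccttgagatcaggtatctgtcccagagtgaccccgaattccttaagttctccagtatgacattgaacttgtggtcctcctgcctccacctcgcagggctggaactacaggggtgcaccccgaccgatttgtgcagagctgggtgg
Lgals9, chr11:78984875-78985174, minus strand: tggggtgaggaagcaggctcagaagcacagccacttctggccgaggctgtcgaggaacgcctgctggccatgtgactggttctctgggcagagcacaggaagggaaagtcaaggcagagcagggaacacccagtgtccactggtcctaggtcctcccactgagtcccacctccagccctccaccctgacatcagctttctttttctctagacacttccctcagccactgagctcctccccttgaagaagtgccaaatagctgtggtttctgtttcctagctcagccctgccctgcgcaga
The Lgals3 window held 2 GC boxes, on opposite strands and on either side of the start site, and 67% of its bases were G or C. The windows of Lgals9, Lgals3bp and Lgals8 held 58%, 55% and 51.7% G or C and no GC box. A GC box was in 35.7% of the 32851 RefSeq windows of this length. None of the 4 windows held the AP-1 letters TGANTCA (7.81% of windows), the STAT letters TTCNNNGAA (8.3%), the E-box CACGTG (7.15%) or the TATA box TATAAA (13.6%), each searched on both strands. A match in a window is a description of its letters and not a site of binding.

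In Ctrl cortex Lgals1 was the most abundant of the 5 genes per kilobase of exon and Lgals3 the least. At P24 the bulk Ctrl means were 6.49 ± 1.04 CPM per kb for Lgals1, 4.83 ± 0.658 for Lgals3bp, 4.56 ± 0.192 for Lgals8, 2.15 ± 0.313 for Lgals9 and 0.238 ± 0.0961 for Lgals3 (SD, n = 4 each). Lgals3bp and Lgals8 are neighbours in this order whose means lay within their spread. The order was the same at P17, where Lgals1 had 9.97 ± 1.04 and Lgals3 0.260 ± 0.0961 CPM per kb (SD, n = 4 each), with Lgals3bp and Lgals8 again within their spread.

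In P24 cKO cortex the order was different, with Lgals3 in second place. Lgals1 had 20.5 ± 11.02 CPM per kb and Lgals3 10.4 ± 6.31 CPM per kb (SD, n = 4 each), values whose spreads overlapped. Lgals8 followed with 5.37 ± 0.301, Lgals3bp with 5.20 ± 1.38 and Lgals9 with 2.39 ± 0.758 CPM per kb (SD, n = 4 each), and the first 2 of these were within their spread.

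Lgals3 encodes galectin-3, the galectin with a collagen-like tail that lets it form pentamers. In P24 Ctrl cortex Lgals3 had 0.441, 0.662, 0.225 and 0.437 CPM in replicates 1 to 4, from 3 to 9 counts per library. The P24 cKO libraries had 2.56, 28.2, 26.5 and 19.8 CPM. All 4 cKO mice were above all 4 Ctrl mice, and replicate 1 stood well under the other 3. The log2 fold change was 5.41 (SE 0.76), and the ratio of summed counts, scaled for library size, was 42.6 with a 95% counting interval of 28.5 to 66.8. Without cKO replicate 1 the log2 fold change was 5.78 (SE 0.22). In bulk cortex, more cells with Lgals3 RNA and more RNA per cell cannot be told apart.

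Lgals1 encodes galectin-1, a dimer-forming galectin with a single sugar-binding site per subunit. Its level in P24 Ctrl cortex was 7.13, 5.67, 4.88 and 5.76 CPM, and in P24 cKO cortex 6.67, 30.2, 21.6 and 15.4 CPM. The groups overlapped, since cKO replicate 1 lay within the Ctrl range while the other 3 cKO mice lay above it. The log2 fold change was 1.64 (SE 0.36), and 1.93 (SE 0.20) without cKO replicate 1.

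Lgals8 encodes galectin-8, which carries a pair of sugar-binding domains and binds to damaged endosomes. It had 17.2, 16.2, 16.3 and 17.6 CPM in P24 Ctrl cortex and 19.8, 21.3, 19.3 and 18.7 CPM in P24 cKO cortex. The groups did not overlap, but the log2 fold change was small, 0.23 (SE 0.07). Lgals3 and Lgals8 were thus 2 of the 5 genes with every cKO mouse above every Ctrl mouse, beside 4.25% of the 22495 genes tested at P24, and none had every cKO mouse lower, beside 3.41%. Lgals3 passed the count filter at P24 through the cKO libraries alone. These values were also among those that chose the genes, so their separation is a description and no test.

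Lgals3bp and Lgals9 had overlapping groups at P24. Lgals3bp had 11.5, 13.2, 14.2 and 16.03 CPM in Ctrl and 9.71, 18.8, 16.8 and 13.9 CPM in cKO mice. Its log2 fold change was 0.10 (SE 0.17). Lgals9 encodes galectin-9, a ligand of the immune receptor TIM-3, and had 3.97, 5.23, 4.05 and 5.10 CPM in Ctrl and 3.64, 7.32, 5.29 and 4.22 CPM in cKO mice. Lgals9 thus had a log2 fold change of 0.15 (SE 0.20). Both genes turned below 0 without cKO replicate 2. Over all genes tested at P24 the median log2 fold change was 0.0005, and 1.72% of genes were called (1.26% higher and 0.462% lower in cKO mice).

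**Figure D1:**
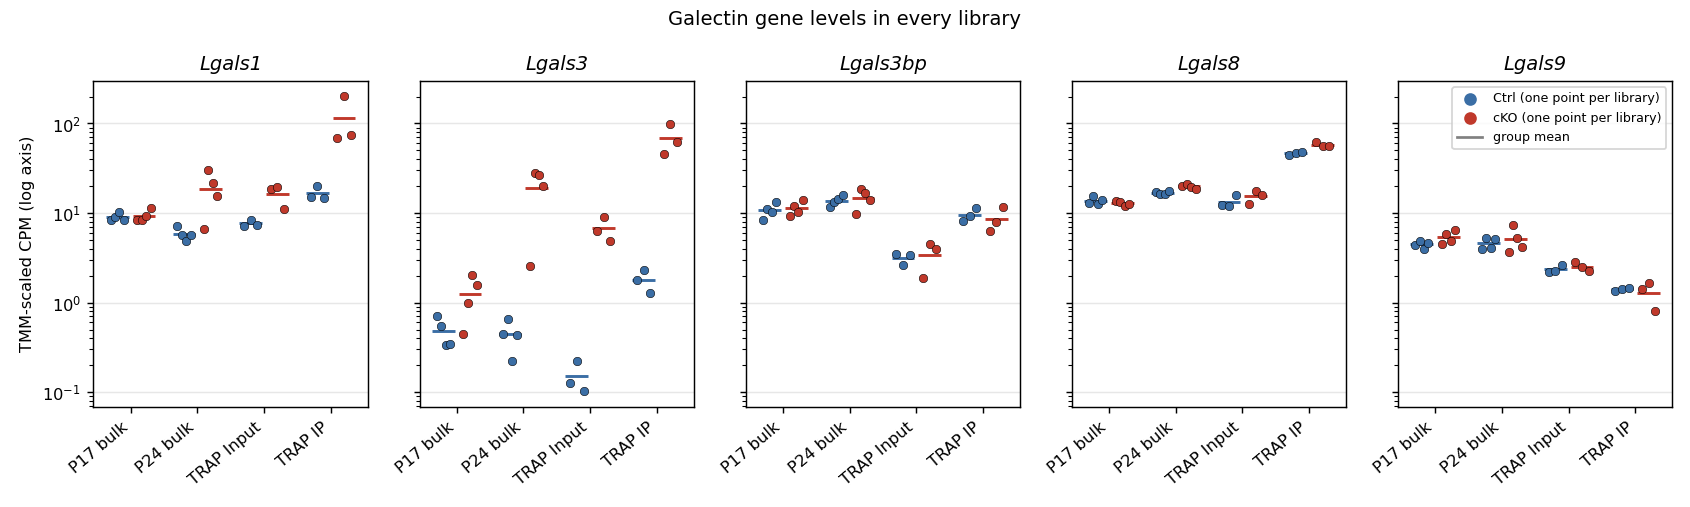
TMM-scaled CPM on a log axis for each of the 5 galectin genes, with a point for each library, a line for the group mean, Ctrl in blue and cKO in red, in P17 bulk, P24 bulk, TRAP Input and TRAP IP libraries. The cKO points of Lgals3 lie between 19.8 and 28.2 CPM in 3 P24 bulk libraries and at 2.56 CPM in replicate 1, while Lgals8 keeps within a narrow band in every group.

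The 4 P24 cKO mice came in the same order for 4 of the 5 galectin genes. Replicate 2 was highest, then replicate 3, replicate 4 and replicate 1 for Lgals3, Lgals1, Lgals3bp and Lgals9, and Gfap, the astrocyte filament gene raised in reactive astrocytes, followed this order too. Gfap had 632, 954, 865 and 778 CPM in cKO replicates 1 to 4, against 124 to 152 CPM in Ctrl mice. Gpnmb, a lysosome-associated glycoprotein gene of phagocytic microglia and other cells, had 21.4, 62.5, 63.8 and 49.0 CPM in the same mice. Replicate 1 was therefore lowest for Gpnmb as well, while its Gfap level was above every Ctrl mouse. Lgals8 did not follow the order, with replicate 1 in second place.

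The spread among cKO mice was not equal across the galectin genes. The highest P24 cKO mouse was 11.02 times the lowest for Lgals3, 4.53 times for Lgals1, 2.01 times for Lgals9, 1.93 times for Lgals3bp and 1.14 times for Lgals8. Among Ctrl mice of that age the same ratio was 2.94 for Lgals3 and 1.46 for Lgals1. Set over the Ctrl mean, Lgals3 was 5.80, 64.0, 60.0 and 44.8 times higher in cKO replicates 1 to 4, and Lgals1 was 1.14, 5.16, 3.69 and 2.62 times higher.

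Summed levels of cell type markers differed among these mice too. The 11 microglia markers summed to 452 CPM in cKO replicate 1 and to 582 to 622 CPM in the other cKO mice, against 477 to 550 CPM in Ctrl mice. The 10 phagocytic microglia markers, which include Gpnmb, summed to 95.5 CPM in cKO replicate 1 and to 132 to 154 CPM in the others, against 76.9 to 88.6 CPM in Ctrl mice. Gpnmb alone had 21.4, 62.5, 63.8 and 49.0 CPM in cKO replicates 1 to 4 and a far lower level in every Ctrl mouse. The lack of overlap in this sum therefore rested on Gpnmb. Of this list 1 of 8 tested markers was called higher, and 1 to 2 over the alternatives. None of the 11 microglia markers was called at P24 by edgeR, where 5 had an unadjusted p under 0.05, and DESeq2 called C1qb. Without cKO replicate 1, 5 of the 11 were called higher, namely C1qa, C1qb, C1qc, Ctss and Itgam, and over all 14 alternatives the number called was 0 to 5. Leaving out that mouse raised the calls over all genes too, from 284 higher of 22495 tested to 650 higher of 22820. Astrocyte markers, which include Gfap, summed to 4179 to 4343 CPM in cKO and 3866 to 4491 CPM in Ctrl mice. Gfap alone had 632 to 954 CPM in cKO and 124 to 152 CPM in Ctrl mice, so similar sums do not mean unchanged markers. Of the 10 astrocyte markers 4 were called higher and 2 lower, beside 1.26% and 0.462% of all genes. Over the alternatives these numbers were 3 to 4 and 1 to 3. The part of these markers in the galectin values was not tested.

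**Figure D2:**
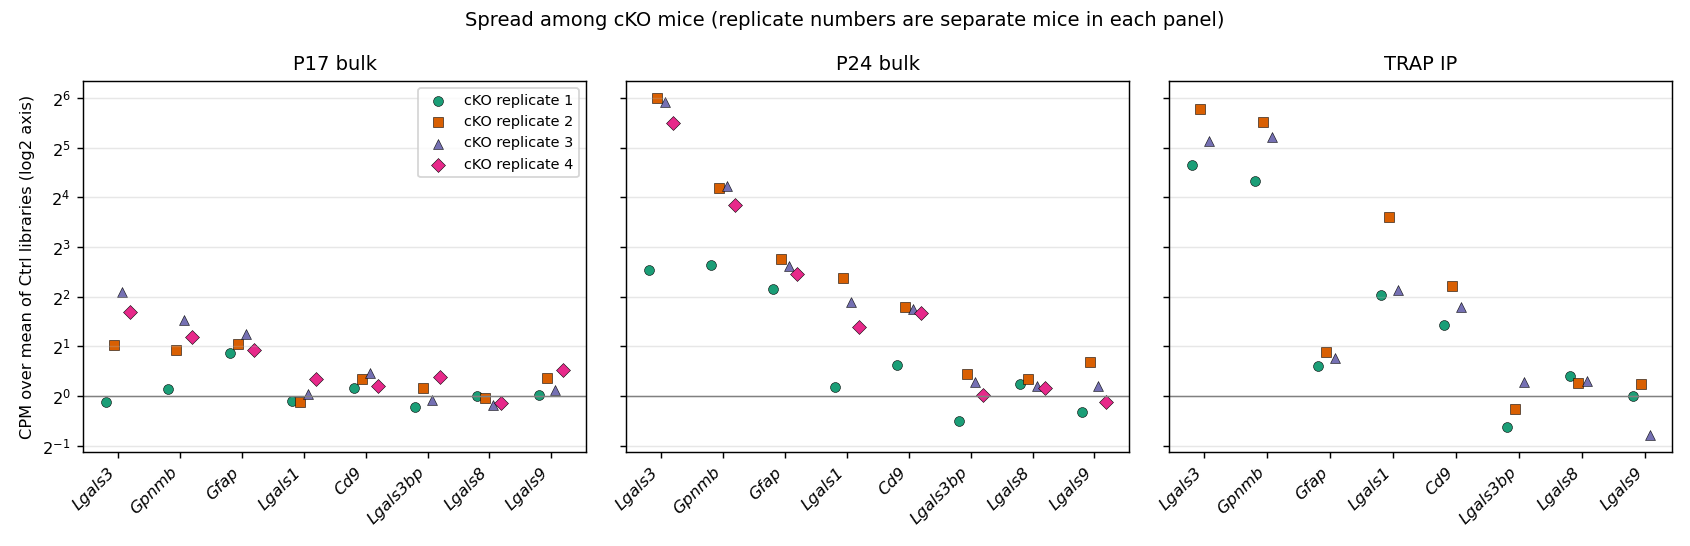
Level of each cKO library over the mean of the Ctrl libraries (log2 axis, a line at 1) for Lgals3, Gpnmb, Gfap, Lgals1, Cd9, Lgals3bp, Lgals8 and Lgals9, in P17 bulk, P24 bulk and TRAP IP libraries. Points are cKO replicates, which are different mice in each panel; at P24 replicate 1 is at 5.80 for Lgals3 and at 1.14 for Lgals1, under the other 3 mice.

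P17 cortex was examined to see whether galectin genes differed between genotypes a week earlier. Lgals3 had 0.701, 0.555, 0.332 and 0.341 CPM in P17 Ctrl mice and 0.441, 0.983, 2.05 and 1.56 CPM in P17 cKO mice. The groups overlapped through cKO replicate 1, while the other 3 cKO mice were above all Ctrl mice. The summed counts were 47 in cKO and 20 in Ctrl mice, a ratio of 2.54 with a 95% counting interval of 1.48 to 4.52, which does not include the spread between mice. The exact two-sided permutation test on CPM gave p = 0.0857, where 4 against 4 mice can go down to 0.0286. Lgals3 did not reach the count filter at P17. In a fit of every gene with at least 1 count its log2 fold change was 1.32 (SE 0.44) with an adjusted p of 0.787 from edgeR, and with DESeq2 it was 1.36 (SE 0.60). No difference of Lgals3 at P17 passed a test. By replicate number, which was taken to pair the P17 libraries, Lgals3 was higher in cKO in 3 of 4 pairs.

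No difference of the other galectin genes passed the test at P17. Lgals1 had 8.33, 9.07, 10.3 and 8.30 CPM in Ctrl mice and 8.38, 8.30, 9.28 and 11.4 CPM in cKO mice. Its log2 fold change was 0.06 (SE 0.13), with a count ratio of 1.04 and a 95% counting interval of 0.898 to 1.21. Lgals3bp, Lgals8 and Lgals9 had log2 fold changes of 0.09 (SE 0.16), −0.09 (SE 0.10) and 0.27 (SE 0.16). The adjusted p of edgeR was 1.00 for all 4 genes, and their exact permutation p lay between 0.143 and 0.743. Lgals9 had 4.38, 4.90, 3.99 and 4.66 CPM in Ctrl replicates 1 to 4 and 4.52, 5.79, 4.85 and 6.46 CPM in cKO replicates 1 to 4. It was thus higher in cKO in 4 of 4 pairs, while the fit with the replicate number as a block put it at 0.26 on the log2 scale (adjusted p = 0.834 from edgeR). Lgals1, Lgals3bp and Lgals8 were higher in cKO in 2, 3 and 1 of 4 pairs. None of the 4 galectin genes tested was called, beside 0.0943% of the 21201 genes tested (20 genes, 0.066% higher and 0.0283% lower). No galectin gene had separate groups at P17, beside 1.74% of genes with cKO higher and 1.09% with cKO lower. None had an unadjusted p under 0.05 in edgeR, and none was called by DESeq2. None was called with the replicate number as a block either, which raised the count over all genes to 109. The 5 members in 2 comparisons, P17 and Input, gave 10 permutation tests, whose p-values are not adjusted.

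TRAP Input libraries come from the extract of cortex before precipitation, in mice that were not in the bulk experiment. The IP libraries of these mice were among those that chose the genes, so the Input values are not independent of that choice. Lgals3 had 0.127, 0.223 and 0.103 CPM in Ctrl Input, which is 3, 4 and 2 counts, and 6.23, 9.11 and 4.91 CPM in cKO Input. All 3 cKO mice were above all 3 Ctrl mice. The log2 fold change was 5.46 (SE 0.40), and the ratio of summed counts was 45.1 with a 95% counting interval of 23.6 to 99.2. The exact permutation test gave p = 0.1, the smallest that 3 against 3 mice allow. Lgals3 passed the count filter in Input through the cKO libraries alone, so no adjusted p is given for it. Over the alternatives its log2 fold change lay between 5.19 and 5.80. A total of 26 genes, 0.109% of the 23828 tested, were called in Input, 0.0923% higher and 0.0168% lower.

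Lgals1 in Input had 7.22, 8.35 and 7.40 CPM in Ctrl and 18.6, 19.4 and 11.2 CPM in cKO mice. The groups did not overlap, the log2 fold change was 1.10 (SE 0.23), and edgeR gave an adjusted p of 0.279. DESeq2 gave 0.00940 and edgeR without the count filter gave 0.0233, so the call for Lgals1 depended on these settings. For Lgals3bp, Lgals8 and Lgals9 the log2 fold changes in Input were 0.13 (SE 0.32), 0.21 (SE 0.19) and 0.10 (SE 0.22), and the adjusted p from edgeR were 0.925, 0.824 and 0.916. The groups overlapped for each of these 3 genes. Of all genes tested in Input, 6.65% had every cKO mouse higher and 5.2% every cKO mouse lower. Several marker lists were higher in cKO Input without overlap. Astrocyte markers summed to 984 to 1133 CPM in Ctrl and 1467 to 2008 CPM in cKO Input, with 1 of 10 called (Aldoc) and 0 to 4 over the alternatives. Phagocytic microglia markers summed to 29.8 to 32.5 CPM in Ctrl and 34.0 to 54.8 CPM in cKO Input, with 0 of 7 tested called and 0 to 1 over the alternatives. Gpnmb alone had 3.204, 12.05 and 8.27 CPM in cKO Input replicates 1 to 3. In Ctrl Input it had 0.779 to 0.977 CPM, so the lack of overlap in this sum rested on Gpnmb. Fibroblast and meningeal markers summed to 92.6 to 117 CPM in Ctrl and 121 to 269 CPM in cKO Input, with 1 of 8 called (Igfbp2), and mural markers to 18.1 to 21.6 CPM and 22.5 to 26.2 CPM. Their part in the galectin values was not tested.

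The IP libraries hold RNA on ribosomes tagged in Cre-expressing cells, at P24. Lgals3 in IP had 1.81, 2.30 and 1.29 CPM in Ctrl and 45.3, 98.7 and 62.9 CPM in cKO mice. The cKO libraries were higher by a log2 fold change of 5.26 (SE 0.31). Lgals1 in IP had 15.2, 20.2 and 14.7 CPM in Ctrl and 68.7, 203 and 73.5 CPM in cKO mice. Its log2 fold change was 2.79 (SE 0.36), or 2.11 (SE 0.14) without cKO replicate 2, the highest library. Lgals8 in IP had 43.9, 47.3 and 47.9 CPM in Ctrl and 61.6, 55.9 and 56.8 CPM in cKO mice. This was a log2 fold change of 0.33 (SE 0.09). Every cKO library was above every Ctrl library for these 3 genes, beside 19.6% of all genes tested in IP. Every cKO library was lower for 18% of genes and for no galectin gene.

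Lgals3bp and Lgals9 in IP had overlapping genotypes. Lgals3bp had 8.06, 9.26 and 11.4 CPM in Ctrl IP and 6.23, 8.02 and 11.6 CPM in cKO IP, and Lgals9 had 1.36, 1.44 and 1.45 CPM in Ctrl IP and 1.41, 1.66 and 0.815 CPM in cKO IP. Their log2 fold changes were −0.14 (SE 0.22) and −0.13 (SE 0.28), and both turned above 0 when 1 library was left out. The 3 cKO mice of the TRAP-Seq experiment came in the order replicate 2, 3 and 1 for Lgals3, Lgals1, Gfap and Gpnmb in IP. With library size alone, without TMM factors, the median log2 fold change over all genes in IP moved from −0.0149 to −0.127 and the share of called genes that were higher from 58.0% to 36.2%. The log2 fold change of Lgals8 was then 0.22, and each of Lgals1, Lgals3 and Lgals8 remained higher in cKO under every scaling tried.

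Markers of other cells were also measured in IP. The 11 microglia markers summed to 142, 265 and 164 CPM in cKO IP replicates 1 to 3 and to 130 to 154 CPM in Ctrl IP, and 2 of the 11 were called higher in cKO mice, beside 11.6% of all genes called higher and 8.42% called lower. The complement gene C1qb was one of them, and the number was 1 to 3 over the alternatives. The phagocytic microglia markers summed to 73.2, 128 and 119 CPM in cKO IP and 60.5 to 77.0 CPM in Ctrl IP. Gpnmb and Cd68 were the 2 called of the 7 tested. Gpnmb alone had 25.8, 58.4 and 47.9 CPM in cKO IP and 1.20 to 1.44 CPM in Ctrl IP, so the higher sums rested on this gene. Fibroblast and meningeal markers summed to 151 to 223 CPM in cKO IP and 72.5 to 92.1 CPM in Ctrl IP, with 2 of 6 tested genes called higher (Igfbp2 and Ptgds) and 1 lower (Col1a1). Mural markers summed to 35.7 to 45.6 CPM in cKO IP and 24.6 to 35.3 CPM in Ctrl IP, with 2 of 4 tested called higher (Rgs5 and Tagln). Of 8 neuron markers 2 were called lower (Syp and Tubb3), and of 5 oligodendrocyte precursor markers 1 was called higher (Vcan). Astrocyte markers had 1 of 10 called higher and 3 lower. Their part in the galectin values of the IP was not tested.

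**Figure D3:**
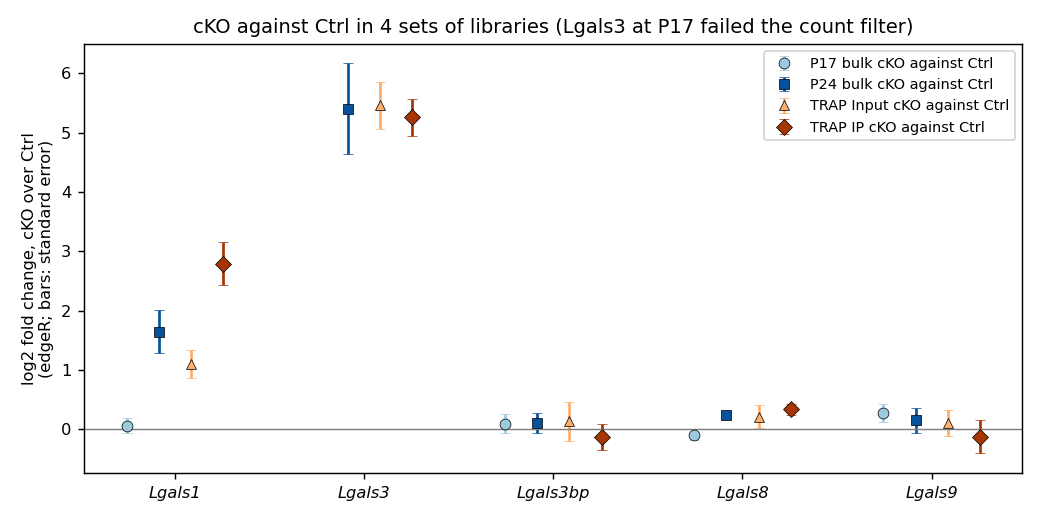
Log2 fold change of cKO over Ctrl from edgeR (bars, standard error) for the 5 galectin genes in P17 bulk, P24 bulk, TRAP Input and TRAP IP libraries; Lgals3 has no P17 point, because it did not reach the count filter. Lgals3 lies between 5.26 and 5.46 in the 3 sets of P24 libraries, Lgals1 between 1.10 and 2.79 there, and the other genes near 0.

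IP against Input in the same mice shows which RNAs are enriched on the tagged ribosomes. In Ctrl mice 4 of the 5 galectin genes were higher in IP and Lgals9 was lower. Lgals3 had the largest difference, from 0.103 to 0.223 CPM in Input to 1.29 to 2.30 CPM in IP, with a log2 fold change of 3.55 (SE 0.41). The Input side of this ratio rests on 9 counts in all, against 142 in IP, a ratio of 12.3 with a 95% counting interval of 6.28 to 27.4. Within each Ctrl mouse the IP level was 14.3, 10.3 and 12.5 times the Input level.

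Lgals8, Lgals3bp and Lgals1 were higher in Ctrl IP by log2 fold changes of 1.79 (SE 0.12), 1.58 (SE 0.18) and 1.12 (SE 0.15). Lgals8 went from 12.2, 11.9 and 15.8 CPM in Input to 43.9, 47.3 and 47.9 CPM in IP, between 3.03 and 3.97 times higher within a mouse. Lgals3bp had 3.46, 2.62 and 3.39 CPM in Ctrl Input, and its IP level was 2.33 to 3.54 times as high. For Lgals1 the ratio within a Ctrl mouse was 1.98 to 2.42. No IP library overlapped an Input library for these genes.

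Lgals9 was the exception, with 2.19, 2.28 and 2.62 CPM in Ctrl Input and 1.36, 1.44 and 1.45 CPM in Ctrl IP. Its log2 fold change was −0.75 (SE 0.21), and no IP library overlapped an Input library. These values stand beside a high background, since 71% of the 24385 genes tested were called, 35.3% higher and 35.7% lower in IP. Separate groups were found for 37.1% of genes with IP higher and 37.6% with IP lower.

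Marker lists give a scale for these values. In Ctrl mice the median log2 fold change of IP over Input was 3.69 for astrocyte markers, 1.01 for mural markers, −0.26 for oligodendrocyte precursor markers, −0.61 for oligodendrocyte markers, −1.27 for endothelial markers, −1.77 for neuron markers and −1.99 for microglia markers. The median of the 7 tested phagocytic microglia markers was −1.02. Border macrophage and monocyte markers had a median of −1.33 and fibroblast and meningeal markers one of −1.56. Lgals3 at 3.55 was within the range of the astrocyte markers, while Lgals8, Lgals3bp and Lgals1 were under the lowest astrocyte marker at 2.40 and above the median of every other list. No marker on the other lists reached Lgals3. Lgals9 at −0.75 lay within the range of each list except that of astrocytes. A gene made by several cell types can take any value between these lists, so a position on this scale names no cell of origin. The scale is also relative to Input, which differed from bulk cortex of that age. Astrocyte markers summed to 984 to 1133 CPM in Ctrl Input and 3866 to 4491 CPM in P24 bulk Ctrl libraries. Endothelial markers summed to 9.62 to 10.9 CPM and 154 to 168 CPM. Why Input and bulk differed was not tested.

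In cKO mice the direction of IP against Input was as in Ctrl mice for all 5 genes, with 4 higher and 1 lower and no overlap between IP and Input. Of the genes tested 56.3% were called, 27.8% higher and 28.5% lower, and 32% had separate groups with IP higher and 32% with IP lower. Lgals3 had a log2 fold change of 3.34 (SE 0.34) and Lgals1 of 2.80 (SE 0.44), or 2.13 (SE 0.26) for Lgals1 without cKO IP replicate 2. Lgals8, Lgals3bp and Lgals9 had 1.90 (SE 0.17), 1.30 (SE 0.36) and −0.98 (SE 0.30). The IP level of Lgals3 was 7.27, 10.8 and 12.8 times the Input level in cKO mice 1 to 3, beside 10.3 to 14.3 times in Ctrl mice. For Lgals1 the ratios were 3.70, 10.5 and 6.54 in cKO and 1.98 to 2.42 in Ctrl mice. The marker scale differed in cKO mice, with medians of 2.84 for astrocyte, 0.54 for mural, −0.11 for phagocytic microglia and −1.90 for microglia markers. The difference between genotypes in the ratio of IP to Input was not tested.

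**Figure D4:**
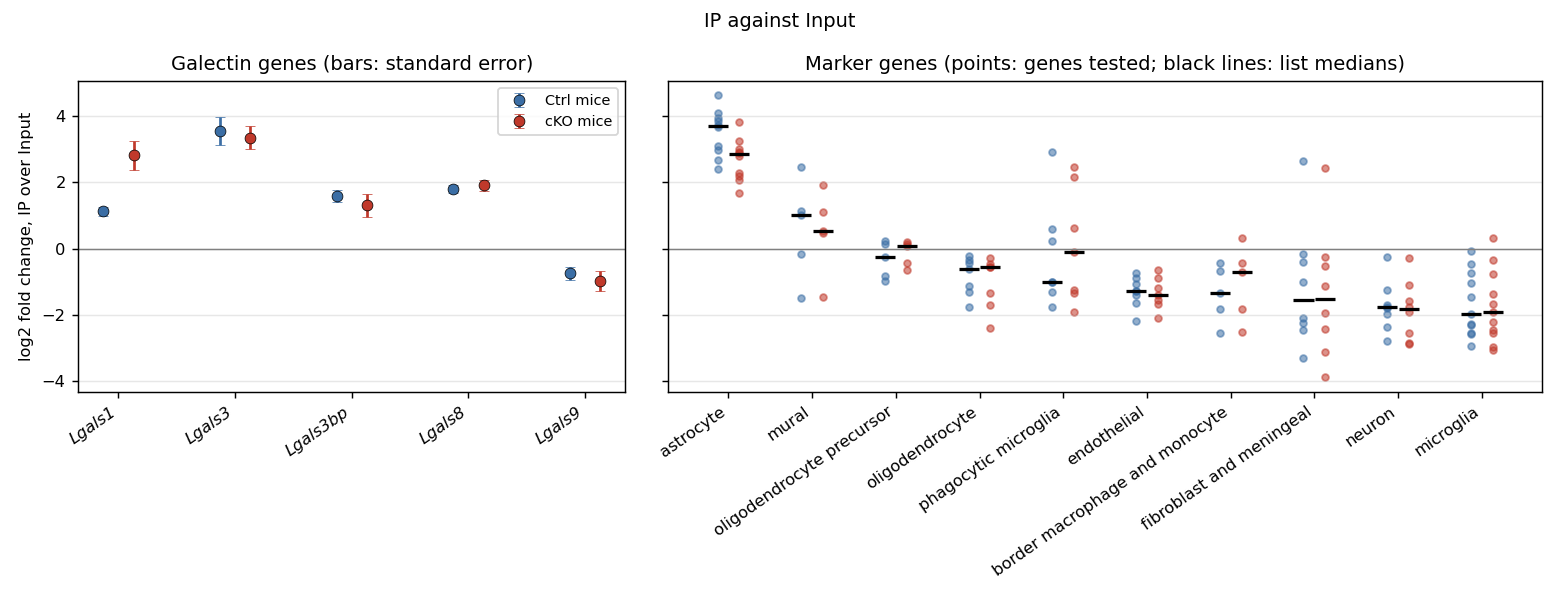
Log2 fold change of IP over Input in Ctrl (blue) and cKO (red) mice, for the 5 galectin genes with standard errors (left) and for the tested genes of 10 marker lists with a black line at each list median (right). Lgals3 lies at 3.55 and 3.34, near the astrocyte markers. Lgals9 lies at −0.75 and −0.98, and its Ctrl value is within the range of each list except that of astrocytes.

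Per kilobase of exon, Lgals1 led in every IP and Input group. In cKO IP Lgals1 had 128 ± 84.7 CPM per kb, Lgals3 37.1 ± 14.6 and Lgals8 15.8 ± 0.840, followed by Lgals3bp at 3.03 ± 0.962 and Lgals9 at 0.605 ± 0.202 CPM per kb (SD, n = 3 each). The SD intervals of Lgals1 and Lgals3 overlapped. In Ctrl IP Lgals3 came after 3 other members, with 0.969 ± 0.273 CPM per kb, below Lgals1 with 18.5 ± 3.37, Lgals8 with 12.6 ± 0.582 and Lgals3bp with 3.37 ± 0.603, and above Lgals9 with 0.661 ± 0.0231 (SD, n = 3 each).

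The other galectin family genes were compared as a list of 7. Lgals6 was not found in the annotation. Lgalsl, a galectin-related gene whose product lacks sugar-binding residues, was by far the most abundant, with 39.4 ± 0.540 CPM in P24 Ctrl and 45.4 ± 2.68 CPM in P24 cKO bulk libraries (SD, n = 4 each). Its log2 fold change at P24 was 0.21 (SE 0.05, adjusted p = 0.0968 from edgeR), and it was called without cKO replicate 1. Grifin, a galectin-like gene known from lens fibres, was called in IP, with 0.793 to 1.81 CPM in Ctrl and 2.02 to 3.99 CPM in cKO mice and a log2 fold change of 1.09 (SE 0.35, adjusted p = 0.0461 from edgeR). It was not called when cKO IP replicate 2 was left out, and DESeq2 called Lgalsl in IP as well. In bulk libraries the means of Lgals2, Lgals4, Lgals7, Lgals12 and Grifin were between 0.0552 and 1.25 CPM, and at P24 only Lgalsl and Lgals4 of the list passed the count filter. None of the list was called at P24 or P17 in bulk or in Input, by edgeR or by DESeq2, and Lgalsl at P24 alone had an unadjusted p under 0.05 in edgeR. In Ctrl IP against Input, Lgalsl, Lgals12 and Grifin were called higher in IP, 3 of the 4 tested, beside 35.3% of all genes. The number was 1 to 3 over the alternatives, and the Input side of Grifin rests on 4 counts in all.

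Galectins act on glycosylated receptors and ligands, of which 19 were listed, and 1 of these, Clec7a, is also on the list of phagocytic microglia. At P24 in bulk, 3 of 17 tested rose in cKO mice and none fell, beside 1.26% and 0.462% of all genes called higher and lower, with a median log2 fold change of 0.16 beside 0.0005 over all genes. Cd9, a tetraspanin, rose by a log2 fold change of 1.52 (SE 0.21, adjusted p = 0.00312 from edgeR), from 16.99 to 21.9 CPM in Ctrl mice to 28.7, 64.7, 62.8 and 59.6 CPM in cKO replicates 1 to 4. Itgb1, the beta-1 integrin chain, and Lamp2, a heavily glycosylated lysosomal membrane protein gene, rose by 0.53 (SE 0.11) and 0.32 (SE 0.05). Without cKO replicate 1 the count was 6, with Itgav, Lamp1 and Tlr4 added, beside 650 of all 22820 genes called higher. With DESeq2 it was 5, beside 380 of 22862. None of 17 was called at P17 by edgeR, where 2 had an unadjusted p under 0.05, or by DESeq2.

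In IP, 4 of 16 tested receptors and ligands rose and 1 fell, beside 11.6% and 8.42% of all genes called higher and lower. Cd9 rose by 1.85 (SE 0.20), the hyaluronan receptor gene Cd44 by 1.82 (SE 0.32), Havcr2, which encodes TIM-3, by 1.19 (SE 0.17) and Itgb1 by 0.69 (SE 0.15). Mertk, a phagocytic receptor gene of astrocytes and macrophages, fell by 1.00 on the log2 scale (SE 0.15). The same 5 genes were called without cKO IP replicate 2. In Input Cd9 alone of 16 was called, with a log2 fold change of 1.46 (SE 0.17, adjusted p = 0.0307 from edgeR), beside 0.109% of all genes. Havcr2 in bulk cortex at P24 had 6.54 to 8.32 CPM in Ctrl and 8.56 to 11.5 CPM in cKO mice and was not called.

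Enzymes that build the glycans galectins bind formed a list of 16. None was called in P24 bulk, P17 bulk or Input by edgeR or by DESeq2. With edgeR 2, 1 and 3 had an unadjusted p under 0.05, and the median log2 fold changes were −0.01, −0.03 and 0.11. In IP, 3 rose and 1 fell of 16, beside 11.6% and 8.42% of all genes. St3gal6, a sialyltransferase gene, rose by 0.52 (SE 0.12), C1galt1, which starts core-1 O-glycans, by 0.50 (SE 0.11), and Mgat5, the enzyme of N-glycan branching that makes preferred galectin ligands, by 0.45 (SE 0.12). St3gal4 fell by 0.41 on the log2 scale (SE 0.10). Without cKO IP replicate 2, C1galt1 and St3gal6 were called.

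Galectin-3 and galectin-8 bind damaged lysosomes and draw autophagy receptors to them, and 16 genes of that response were listed. None of the 15 tested was called in P24 bulk, P17 bulk or Input by edgeR, nor by DESeq2, and 4, 0 and 0 had an unadjusted p under 0.05 in edgeR. In IP 1 of 15 tested rose and 2 fell, beside 11.6% and 8.42% of all genes called higher and lower. The list median was −0.01, beside −0.01 over all genes. Trim16, a partner of galectin-3 at damaged lysosomes, rose by 2.94 (SE 0.27). It went from 0.678, 0.340 and 0.820 CPM in Ctrl IP to 4.22, 5.15 and 4.74 CPM in cKO IP. Trim16 had 18, 9 and 21 counts in Ctrl IP and passed the count filter through the cKO libraries. No adjusted p is therefore given for it, and its call is no support for a difference. Optn and Tax1bp1, autophagy receptor genes, fell by 0.42 (SE 0.12) and 0.35 (SE 0.11). Without cKO IP replicate 2 Trim16 alone was called, beside 2633 of 24623 genes. DESeq2 called 5 genes of the list, beside 5066 of 19758 genes. In bulk at P24 Trim16 had 0.809 to 1.62 CPM in Ctrl and 1.35 to 2.55 CPM in cKO mice.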

How the data were processed

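RNA was sequenced from mouse cortex in 28 libraries, 16 of bulk RNA-Seq and 12 of TRAP-Seq, and grouped by what the labels give of genotype, age and fraction. Per the study's methods and the submitters' processing notes, the authors mapped reads to mm10 with RNA STAR in Galaxy and used edgeR. They deposited raw counts per Ensembl gene, without normalization, in 3 tables. The counting tool, strand setting and annotation are not given in the sources used here. The age of the bulk tables was read from the table names, since their columns do not show it. The gene with the loxP-flanked alleles is not reported here. Of 53342 identifiers, 53237 were found in GENCODE M21, 105 were not, and the P24 table holds 1 truncated identifier.

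Counts were analysed in R 4.3.3 with edgeR 4.0.16 (TMM factors, filterByExpr with a minimum count of 10, a total of 15 and a proportion of 70%, two-sided quasi-likelihood test, Benjamini-Hochberg over all genes tested, threshold 0.05) and, as an alternative, DESeq2 1.42.0. Only the groups compared entered a fit, without a replicate block. Levels are CPM over the TMM-scaled library size of each table, and exact permutation tests on them were run in scipy 1.17.1. Counting intervals of count ratios are at 95% and exclude the spread between mice. The same-numbered P17 cKO and Ctrl libraries deviated together, with correlations of 0.321, 0.184, 0.38 and 0.167 that were all over 0.1, so the number was taken to pair them; nothing in the labels says what they share. IP and Input are paired by mouse; their comparison was fitted in the same way, but no p of a galectin gene is given for it, because IP levels were among the values that chose the genes. By the same criterion no pairing was taken in P24 bulk (0.0286 to 0.218), IP (0.0355 to 0.116) and Input (−0.0342 to 0.102). This does not show that pairing was absent, since IP and Input of the same mouse gave −0.102 to 0.122.

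The galectin genes and all lists were chosen with earlier results of these data known. Calls and adjusted p of list genes are therefore descriptions and not independent tests. Genes named besides the 5 members are the called genes of each list, up to 4 per comparison, and the 3 most like each member; marker genes, Lgalsl and other genes named only by one setting were chosen after their values were seen. The fits were tested on simulated counts with 100 genes at each known log2 fold change. Of genes changed by 1 they recovered 82% for the P24 bulk comparison of 22495 genes and 84% for P17 (21201 genes). The shares were 88% for IP (23864 genes) and 35% for Input (23828 genes). For IP against Input they were 86% in Ctrl and 33% in cKO mice. Changed genes were drawn from those with a mean of at least 1 CPM, so the shares do not cover lower genes, such as Lgals3 at P17. Alternatives were RLE factors, library size alone, no count filter, a minimum of 10 counts per library, a joint fit of all TRAP-Seq libraries, the replicate block and leaving out each library.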

Additional observations from a re-analysis of the deposited data

How the results depend on the processing

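Under alternatives, 368 log2 fold changes of galectin genes kept their direction and, where tested, their side of the threshold or moved by less than 1 SD. Another 9 turned, all with a library left out and 4 of them in tested comparisons. At P17 with a library left out, Lgals1 ranged from −0.055 (without cKO replicate 4) to 0.12 and Lgals3bp from −0.028 (without cKO replicate 4; −0.024 without Ctrl replicate 1) to 0.21. In Input Lgals3bp ranged from −0.096 (without cKO replicate 2) to 0.42. In P24 bulk without cKO replicate 2 Lgals3bp was −0.032 and Lgals9 −0.068. In IP Lgals3bp was 0.073 without cKO replicate 1 and 0.0077 without Ctrl replicate 3, and Lgals9 was 0.12 without cKO replicate 3. Lgals1 and Lgals8 in IP moved by more than 1 SD (2.11 without cKO replicate 2, 0.22 with library size alone), and Lgals1 and Lgals3 in Input and Lgals9 in Ctrl IP against Input crossed the threshold. The number of galectin genes called in Input was 1, and 2 with DESeq2 or without the count filter. It was 0 with 10 counts in every library, which removes Lgals3. With a library left out it was 0 to 1, with 0 lacking Ctrl replicate 3. This count includes Lgals3, which passed the filter through the cKO libraries alone. It shows the dependence on settings and is no support for a difference, beside 0.109% of all genes called. With a library left out, the number stayed at 0 at P17 (0 to 0). In Ctrl IP against Input it stayed at 5 (5 to 5), beside 71% of all genes. IP levels were among the values that chose the genes, so those calls are no test. Over all genes, 388 were called in P24 bulk, 618 without the filter, 596 with DESeq2 and 216 (without cKO replicate 2) to 950 (without cKO replicate 1) when a library was left out; leaving out cKO replicates 3 and 4 and Ctrl replicates 1 and 2 gave 238, 222, 235 and 226. At P17 20 were called, 55 without the filter, 40 with DESeq2, 109 with the replicate block, and 11 (without Ctrl replicate 2) to 19 with a library left out, with 13 lacking Ctrl replicate 3. In IP 4782 were called, 1684 with all TRAP-Seq libraries in a joint fit and 2633 (without cKO replicate 2) to 4810 with a library left out, with 3068 and 3183 lacking Ctrl replicates 1 and 3. In Input 26 were called, 112 without the filter, 15 with 10 counts in every library, 119 with DESeq2, 8 with the replicate block, 127 in the joint fit and 4 (without Ctrl replicate 2) to 112 (without cKO replicate 1) with a library left out, with 5 lacking Ctrl replicate 1 or 3. For IP against Input, the leave-one-out counts were 16154 to 17296 in Ctrl and 10973 to 16818 in cKO mice, and the block by mouse gave 17332 and 12943, beside 17304 and 13526. The replicate block gave 410 calls in P24 bulk and 6735 in IP, where the numbers were not taken to pair the libraries. It changed no call of a galectin gene that was tested. The joint fit of a table does not apply to bulk, whose fits already hold every library, and 10 counts in every library leaves no value for Lgals3 in most comparisons. The causes were not tested. Lgals3 had 2 to 9 counts per Ctrl bulk or Input library, which limits the precision of its ratios.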

Other observations

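The genes whose levels were most like each galectin gene were ranked by Pearson's r of log2(CPM + 1) across all libraries of an experiment. The values are descriptions with no p, since the libraries share genotype, age or fraction, and they say nothing of shared function. Over the 16 bulk libraries, and among 20752 candidate genes, the closest to Lgals3 were the processed pseudogene Gm4815 (r = 0.987), Vim (0.981), the intermediate filament gene of reactive astrocytes, and the predicted gene Gm42674 (0.977). For Lgals1 they were Msn (0.948), a membrane-cytoskeleton linker, Tspo (0.93), a mitochondrial membrane protein gene raised in glial activation, and Pdlim5 (0.928). Lgals3bp stood with Irf7 (0.892), H2-D1 (0.883) and Oasl2 (0.874), which are known interferon-responsive genes. Lgals9 had lower values, with Isca2 (0.834), the interferon-induced Bst2 (0.796) and Gpr55 (0.775). Lgals8 was closest to Tmem106b (0.949), a lysosomal membrane protein gene, to Gjb1 (0.945), the connexin gene of myelinating cells, and to Casd1 (0.941).

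Over the 12 TRAP-Seq libraries, among 20028 candidates, fraction separates the libraries and the values were higher. Lgals3 was closest to Syt15 (0.988), Galnt15 (0.984), a glycosyltransferase gene, and Tagln2 (0.981), and Lgals1 to S100a11 (0.99), the processed pseudogene Gm7665 (0.99) and Dap (0.985). Lgals8 was closest to Itgb8, Rsu1 and Gng12 (each 0.996), Lgals3bp to C4a (0.984), Syn3 (0.984) and Epas1 (0.981), and Lgals9 to Cd200 (0.971), Rnf128 (0.964) and Mrnip (0.962). No gene was among the 3 closest to the same galectin in both experiments. Reads on pseudogenes and on genes with near-identical copies may belong to other loci.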
